A study of Mus musculus with 22 samples.

Results

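The genes described here are 45 genes of fatty acid uptake, storage and oxidation, taken from a list of symbols. They are 45 of the 55011 gene symbols in the count table of mouse visceral fat regulatory T cells (Tregs), and every one was found in it. The table holds 22 RNA-seq libraries in 8 groups. Each library came from 1000 cells carrying the Foxp3-YFP reporter, sorted in a pair of rounds from the visceral adipose tissue of male mice at ZT0, the time at which the light phase begins. All groups, controls included, carried the Foxp3.Cre-YFP allele on C57BL/6, in which the Treg gene Foxp3 drives the Cre recombinase, and the cells were labelled Bmal1 WT or Bmal1 KO. The lean groups (diet label LFD) were 18 weeks old, with 3 WT and 3 KO libraries. The groups on 4 weeks of high fat diet were also 18 weeks old, and those on 16 weeks were 30 weeks old, both after 14 weeks of lean diet, again with 3 WT and 3 KO libraries each. The 2 WT and 2 KO transfer libraries held donor Tregs recovered from visceral fat. These cells had spent 9 weeks in the host, and the mice were killed at an age of 20 weeks. The labels name neither the hosts of the transfer nor the deleted part of Bmal1, and they do not say that the libraries of a group came from separate animals, so each p value below measures only the spread between libraries.

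Fatty acids enter a cell through transporters such as CD36 and are carried inside it by binding proteins, then linked to coenzyme A by the acyl-CoA synthetases. The acyl-CoA is either built into triglyceride, which sits in droplets coated with perilipins, or passed through the carnitine shuttle into mitochondria, where beta-oxidation shortens it and hands electrons to the respiratory chain through the electron transfer flavoprotein. Visceral fat holds a distinct Treg population that takes up lipid and depends on the nuclear receptor PPARG, and BMAL1 is a core activator of the circadian clock that binds DNA at E-boxes.

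The bases upstream of 3 of these genes are shown because the calls of Cpt1a and Ucp2 at 16 weeks of high fat diet held without any single library, and Plin2 varied several-fold between libraries. Each is the RefSeq promoter table's 250 bases before the start site (build GRCm38.p6, the same assembly as mm10), 5′ to 3′ on the strand of the gene. The capitals mark the nuclear receptor hexamer AGGTCA on either strand, the unit from which PPAR sites are built. Cpt1a is at chr19:3323051-3323300 (plus strand), Ucp2 at chr7:100493108-100493357 (plus strand) and Plin2 at chr4:86670060-86670309 (minus strand). These windows end at a RefSeq start, which differs from the outermost GENCODE start of the gene coordinates given with the values: 16, 21 and 1 of the bases of Cpt1a, Ucp2 and Plin2 lie in GENCODE exons, and the Cpt1a window lies inside its GENCODE gene.
Cpt1a: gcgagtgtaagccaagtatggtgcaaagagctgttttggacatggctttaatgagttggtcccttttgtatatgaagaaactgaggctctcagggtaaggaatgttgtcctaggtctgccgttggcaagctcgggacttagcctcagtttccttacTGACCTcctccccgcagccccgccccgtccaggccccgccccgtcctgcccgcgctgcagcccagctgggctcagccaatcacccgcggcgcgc
Ucp2: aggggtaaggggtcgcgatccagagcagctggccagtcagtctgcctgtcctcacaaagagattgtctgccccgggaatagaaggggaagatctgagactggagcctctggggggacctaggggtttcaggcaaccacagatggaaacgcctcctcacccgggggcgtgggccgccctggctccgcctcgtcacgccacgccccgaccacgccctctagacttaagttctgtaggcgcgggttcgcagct
Plin2: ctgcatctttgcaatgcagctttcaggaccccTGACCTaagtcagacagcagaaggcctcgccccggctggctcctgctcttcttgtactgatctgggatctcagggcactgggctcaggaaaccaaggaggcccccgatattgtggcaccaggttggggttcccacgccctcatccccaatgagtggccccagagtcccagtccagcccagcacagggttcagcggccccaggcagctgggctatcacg
The hexamer lies 94 to 89 bases upstream of the RefSeq start of Cpt1a and 218 to 213 bases upstream of that of Plin2, and the Ucp2 window holds none. The E-box CACGTG, which reads the same on both strands, is in none of the 3 windows.

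Over all members, 37 of 45 genes matched the RefSeq table, with 44 promoters. In the 250 bases upstream, the E-box CACGTG was in 3 of the 44 member promoters (6.82%: Lipe, Mgll and Slc27a1), beside 6.02% of all 32851 promoters in the table. AGGTCA on either strand was in 7 of 44 (15.9%: Acadm, Acadvl, Acsl6, Cd36, Cpt1a, Echs1 and Plin2), beside 14.0% of all promoters. The direct repeat AGGTCANAGGTCA, which contains the hexamer, was in 0 of the 44 and in 0.0335% of all. A match describes letters in this window and is not a measured site. Decr1, Fabp4, Acaa2, Dgat1, Crat, Fabp5, Dgat2 and Ppargc1b were not in the promoter table used here.

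Depth differed between the diet groups as well as between the designs. The 18 diet libraries held 1955940 to 3467019 counts each, and the 4 transfer libraries were deeper, at 4814337 to 5990319. Every WT library at 16 weeks (2872201 counts or more) was deeper than every lean library (2804378 or fewer), so depth partly goes with diet. Genes detected were 20547 to 23400 in the 16-week libraries and 18898 to 19535 in the lean ones. They were 19664 to 20057 in the deeper transfer libraries, so genes detected did not follow depth alone. A library with no count for a gene still allows an expected count of up to 3, which is 0.542 to 1.60 CPM (counts scaled to library size, with TMM factors over all 22 libraries). These limits cover counting error only, since PCR copies are counted as separate reads. Arntl, the gene of BMAL1, had group means of 69.5 to 90.4 CPM in WT and 84.4 to 97.0 CPM in KO, and a count over the whole gene does not check a deletion of unknown extent. Its target Nr1d1 had group means of 22.3 to 88.2 CPM in WT and 1.13 to 2.74 CPM in KO. The 7 Treg markers, Foxp3 among them, were detected in every library and summed to 4431 to 6699 CPM. The 6 adipose Treg markers summed to 2211 to 10491 CPM. The 10 adipocyte markers summed to 0 to 17.3 CPM, with Adipoq at 3.09 CPM or less, and the 10 macrophage markers to 3.77 to 17.6 CPM. KO replicate 1 on 16 weeks of high fat diet stood apart, with 122 CPM of endothelial markers other than Pecam1 (next highest 30.4 CPM) and 119 CPM of stromal markers (next highest 14.1 CPM). WT replicate 3 on the same diet had 709.9 CPM of cytotoxic T and NK markers (next highest 390.4 CPM), of which Nkg7 made 645 CPM, with Cd8a at 0.

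The beta-oxidation enzymes were well expressed, and the regulators among the members, other than Ucp2, were low. To set genes side by side, levels are given as CPM per kb of annotated exon (mean ± SD over the 22 libraries). This length joins all annotated exons of a gene and can exceed that of its transcripts. For Fabp4 the 4489 bases equal the full span of the gene, and for Echs1 they are 8286. Such genes come out too low, so the order of genes below is approximate. The median member had 11.4 CPM per kb, beside 0.165 CPM per kb over the 41545 genes with a count and a known length, and 22 of the 45 members lay in the top 10% of those genes. That set takes any gene with at least 1 count in any library. Only 12523 genes were tested over all 22 libraries, so the set holds many genes too sparse to test. Ucp2, a carrier in the inner mitochondrial membrane, led with 248 ± 35.0 CPM per kb. It was followed by Acot7, which cleaves acyl-CoA back to free fatty acid (149 ± 23.6), by Dgat1, which makes triglyceride (126 ± 25.5), and by Plin2, the main droplet coat protein of cells that are not adipocytes (119 ± 52.7). The spread over libraries of these last 3 genes overlapped.

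Of the 13 beta-oxidation genes, Acaa2, the mitochondrial thiolase, was highest at 70.8 ± 11.9 CPM per kb. The dehydrogenase Acadl had 60.4 ± 13.1 and its relatives Acadvl, Acads and Acadm, which act on very long, short and medium chains, had 35.0 ± 4.93, 26.7 ± 4.78 and 12.0 ± 2.30 CPM per kb. The trifunctional protein subunits Hadha and Hadhb had 21.2 ± 2.28 and 11.4 ± 1.37, and Hadh, the short-chain hydroxyacyl dehydrogenase, had 23.1 ± 4.76 CPM per kb. Eci1, Eci2 and Decr1, which process unsaturated chains, had 26.9 ± 4.98, 10.7 ± 1.57 and 6.25 ± 1.55 CPM per kb. Echs1, the enoyl-CoA hydratase, had 6.33 ± 0.857, and Acaa1a, the peroxisomal thiolase, had 25.3 ± 2.16 CPM per kb, although its near-identical copy Acaa1b makes that count uncertain. Electron transfer genes were of similar rank, with 41.7 ± 12.3 CPM per kb for Etfb, 37.8 ± 5.97 for Etfa and 7.63 ± 1.47 for Etfdh.

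Among the carnitine shuttle genes, Cpt1a, the gatekeeper enzyme that forms acylcarnitine, had 22.2 ± 4.31 CPM per kb. Slc25a20, the carrier across the inner membrane, had 12.8 ± 2.59, Cpt2, which restores acyl-CoA inside, had 11.9 ± 3.03, and Crat, which handles short acyl groups, had 3.29 ± 1.20 CPM per kb. Of the acyl-CoA synthetases, Acsl5 was highest (35.1 ± 4.26), then Acsl4 (5.74 ± 1.57), Acsl1 (1.58 ± 0.430) and Acsl3 (1.32 ± 0.997), and Acsl6 was scarcely detected (0.0350 ± 0.0381 CPM per kb). The lipases Pnpla2, Lipa and Lipe, which act at the droplet surface, in the lysosome and on diglyceride, had 25.7 ± 4.22, 13.2 ± 3.31 and 3.64 ± 0.906 CPM per kb. The droplet protein Plin3 had 12.9 ± 3.02 and Dgat2, the other triglyceride-forming enzyme, 3.75 ± 3.22 CPM per kb.

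The 5 uptake genes had levels near those of the scarcer enzymes above. Fabp5, a binding protein of many immune and skin cells, had 5.42 ± 1.49 CPM per kb, the transport proteins Slc27a4 and Slc27a1 had 3.67 ± 1.22 and 3.03 ± 0.854, Cd36 had 2.71 ± 6.80 and Fabp4, the adipocyte binding protein, had 1.37 ± 2.44 CPM per kb. For Cd36 and Fabp4 the SD exceeded the mean.

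**Figure D1:**
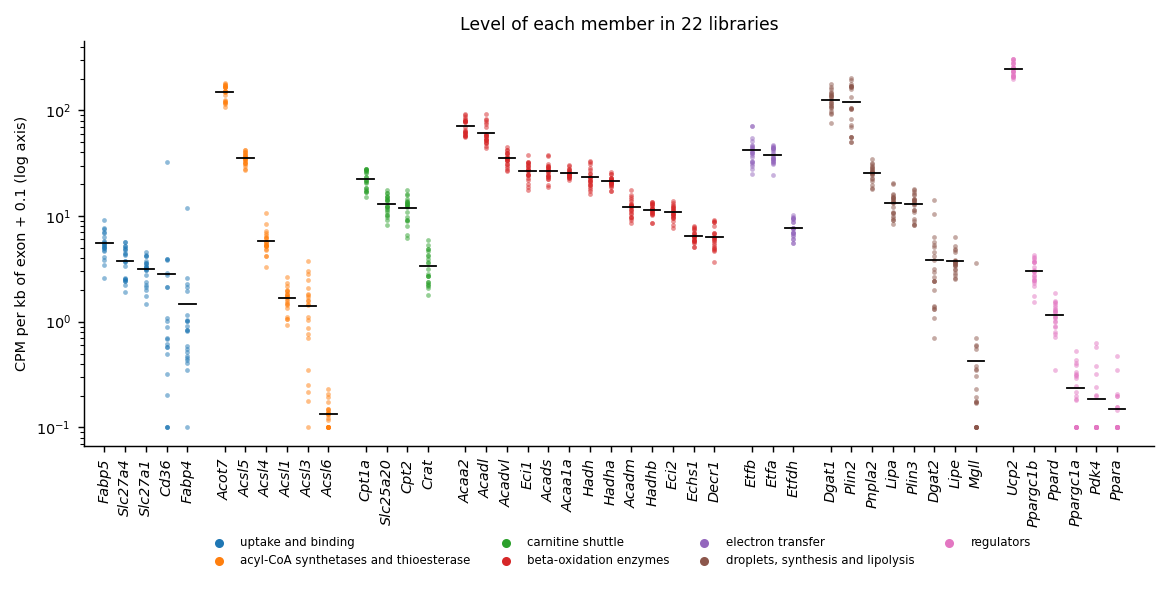
CPM per kb of annotated exon, plus 0.1, on a log axis for each of the 45 genes, grouped by role. Points are the 22 libraries and black bars are means, which run from 248 for Ucp2 to 0.035 for Acsl6.

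The PPAR and PGC-1 regulators among the members were low or scarcely detected in these Tregs. Pparg is not a member and was higher, with group means of 15.6 CPM in KO at 16 weeks to 144 CPM in transferred WT. Ppara, the receptor that drives fat burning in liver, was listed at 0 in 14 of 22 libraries and had 1.44 CPM at most. Pdk4, a kinase that spares glucose when fat is burned, was at 0 in 15 libraries with at most 1.84 CPM. Ppargc1a, a coactivator of mitochondrial genes, was at 0 in 8 libraries with at most 2.85 CPM. The 4 transfer libraries were all at 0, and each taken alone allows up to 0.542 to 0.662 CPM. Mgll, the monoglyceride lipase, was at 0 in 7 libraries and reached 17.6 CPM in KO replicate 1 on 16 weeks of high fat diet, with 3.04 CPM or less elsewhere. Acsl6 was at 0 in 8 libraries, with 1.30 CPM at most. These 5 genes were too sparse to be tested, and the other 40 members were tested in every comparison.

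Ppard, the widely expressed PPAR, had 7.54, 9.20 and 5.22 CPM in the lean WT libraries and 10.6, 7.45 and 8.73 CPM in lean KO. It had 6.79, 7.83 and 8.53 CPM in WT and 5.88, 6.81 and 9.03 CPM in KO at 4 weeks, then 10.1, 5.02 and 11.0 CPM and 4.68, 13.3 and 10.8 CPM at 16 weeks. After transfer it had 8.61 and 6.14 CPM in WT and 9.69 and 1.89 CPM in KO, so that its groups overlapped throughout. Ppargc1b, a relative of Ppargc1a, was the more abundant coactivator. Its levels were 15.5, 16.7 and 12.8 CPM in lean WT and 14.3, 11.7 and 14.2 CPM in lean KO, and 11.3, 6.66 and 15.1 CPM and 9.92, 15.9 and 9.39 CPM at 4 weeks. At 16 weeks they were 10.7, 8.78 and 9.60 CPM in WT and 5.76, 11.8 and 10.4 CPM in KO, and after transfer 14.1 and 11.7 CPM and 9.48 and 8.33 CPM. Its difference at 16 weeks against lean diet did not pass the test (log2 fold change -0.58 ± 0.24, adjusted p = 0.168).

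Long high fat feeding changed a few of these genes in either direction and gave no call among the beta-oxidation enzymes. At 16 weeks against lean diet, averaged over the genotypes, 7 of the 40 tested members passed an adjusted p under 0.05 in the edgeR quasi-likelihood test. That is 17.5% of the members, beside 6.63% of all 11698 genes tested (776 genes). Cpt1a, Dgat2, Cd36 and Fabp4 rose (4 members, beside 2.92% of all genes higher), and Ucp2, Plin3 and Acsl3 fell (3 members, beside 3.72% lower). Only 2 to 6 members were called when 1 of the 12 libraries was left out. Cd36 and Fabp4 also lost their calls with a replicate block. The median log2 fold change over the 40 members was -0.04, beside 0.00 over all genes. The mice at 16 weeks were also 12 weeks older than the lean mice, so diet and age cannot be told apart. In sorted bulk cells, a change in the share of cells that express a gene and a change in RNA per cell cannot be told apart either.

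Cpt1a (chr19:3322334-3385733, plus strand, mm10) rose on average over the genotypes. It had 156, 115 and 131 CPM in the lean WT libraries and 128, 139.9 and 139 CPM in lean KO. At 16 weeks it had 135, 214 and 207 CPM in WT and 194, 199.9 and 214 CPM in KO. One WT library at 16 weeks lay among the lean values, and the other 5 lay above all 6 lean libraries. The average rise was 1.44-fold (log2 fold change 0.52 ± 0.11 (SE), adjusted p = 0.0069), and the call remained when each of the 12 lean and 16-week libraries was left out in turn (adjusted p at most 0.0226).

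The carnitine carrier Slc25a20 and the lysosomal lipase Lipa had positive folds at 16 weeks that did not pass, with log2 fold changes of 0.41 ± 0.15 (adjusted p = 0.109) and 0.44 ± 0.16 (adjusted p = 0.104). The rest of the shuttle did not pass either, at 0.27 ± 0.22 for Cpt2 and -0.16 ± 0.24 for Crat.

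Ucp2 (chr7:100493337-100502020, plus strand) fell. Lean libraries had 1804, 1452 and 1632 CPM in WT and 1953, 2124 and 2062 CPM in KO. At 16 weeks the levels were 1394, 1432 and 1466 CPM in WT and 1654, 1534 and 1601 CPM in KO. The fall was 1.21-fold (log2 fold change -0.28 ± 0.07 (SE), adjusted p = 0.013), small beside its level, and the KO libraries did not overlap between the diets while the WT libraries did. The call remained in each of 12 fits without a single library (adjusted p at most 0.0421). Exons of Dnajb13 on the other strand overlap Ucp2, and the kit does not mark the strand.

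**Figure D2:**
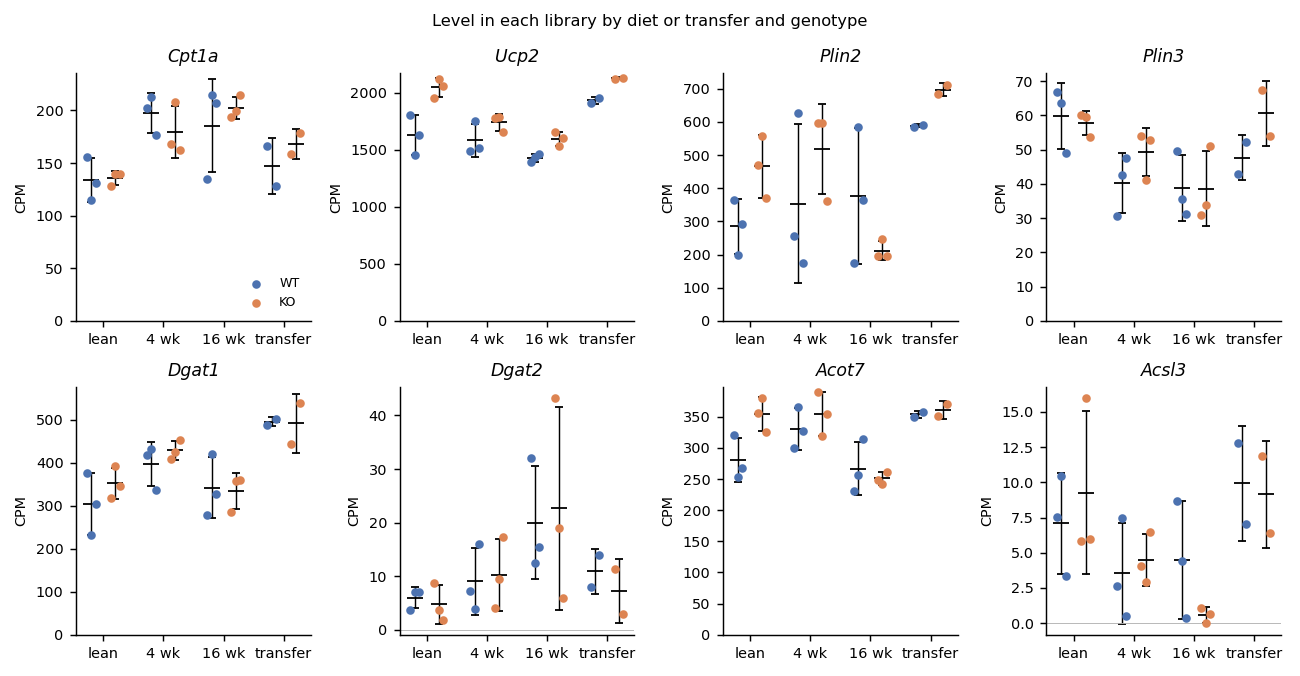
CPM of 8 members in each library, with WT in blue and KO in orange and the lean, 4-week, 16-week and transfer groups from left to right. Bars are means with the SD (3 libraries a diet group, 2 a transfer group). At 16 weeks Cpt1a exceeds 190 CPM in 5 of 6 libraries, and Plin2 reaches 585 CPM in a single WT library.

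Of the droplet and lipolysis genes Plin3 fell and Dgat2 rose, and the other tested ones did not pass. Plin3 (chr17:56277476-56292873, minus strand) had 66.9, 63.5 and 48.9 CPM in lean WT and 60.1, 59.6 and 53.7 CPM in lean KO, and 49.7, 35.5 and 31.2 CPM and 30.9, 33.8 and 51.2 CPM in WT and KO at 16 weeks. It was 1.52-fold lower (log2 fold change -0.60 ± 0.16 (SE), adjusted p = 0.0233), with one library of each genotype at 16 weeks inside the lean range. The call was lost when any one of lean WT replicates 1 and 2, lean KO replicates 1 and 2, 16-week WT replicate 3 and 16-week KO replicates 1 and 2 was left out (adjusted p up to 0.0713). Dgat2 (chr7:99153658-99182719, minus strand) had 3.77, 7.11 and 7.12 CPM in lean WT and 8.80, 3.72 and 1.84 CPM in lean KO, and rose to 32.0, 12.5 and 15.4 CPM in WT and 43.2, 19.0 and 5.87 CPM in KO at 16 weeks. All WT libraries and 2 of 3 KO libraries at 16 weeks lay above the lean range. The rise was 3.86-fold (log2 fold change 1.95 ± 0.48 (SE), adjusted p = 0.0172), and it missed the threshold when any one of lean WT replicate 1, 16-week WT replicate 1 and 16-week KO replicate 1 was left out (adjusted p up to 0.0743).

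Dgat1, the enzyme of the pair with the higher level per kb, had 376, 232 and 303 CPM in lean WT and 319, 392 and 345 CPM in lean KO, against 279.7, 419 and 328 CPM and 285, 357 and 359.6 CPM at 16 weeks. These ranges overlapped and the log2 fold change was 0.05 ± 0.12 (adjusted p = 0.886). Pnpla2 and Lipe, the lipases of the droplet, had log2 fold changes of -0.24 ± 0.12 and 0.14 ± 0.17 that did not pass (adjusted p = 0.247 and 0.735).

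Acsl3, a synthetase of the endoplasmic reticulum and droplets, fell from low levels. It had 7.54, 10.4 and 3.32 CPM in lean WT, 5.87, 16.0 and 5.97 CPM in lean KO, 8.71, 4.39 and 0.343 CPM in WT at 16 weeks and 1.08, 0 and 0.652 CPM in KO at 16 weeks. The KO libraries did not overlap between the diets and rested on 5 counts in all at 16 weeks, while the WT libraries overlapped. The average was 4.77-fold lower (log2 fold change -2.25 ± 0.64 (SE), adjusted p = 0.0375), and the call was lost when any one of lean WT replicates 1 and 2, lean KO replicate 2, 16-week WT replicates 2 and 3 and 16-week KO replicates 1, 2 and 3 was left out (adjusted p up to 0.107). Exons of Utp14b on the same strand overlap those of Acsl3. The other synthetases did not pass, with log2 fold changes of -0.11 for Acsl1, -0.16 for Acsl4 and -0.01 for Acsl5.

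The 13 beta-oxidation genes gave 0 calls at 16 weeks, with log2 fold changes from -0.32 for Acadm to 0.24 for Hadhb and 6 of 13 positive. Of the 13, 3 had an unadjusted p under 0.05, beside 20.1% of all genes. Acadm had 56.1, 46.8 and 45.6 CPM in lean WT and 50.6, 47.9 and 48.2 CPM in lean KO, above its 43.0, 41.7 and 32.9 CPM in WT and 43.9, 37.6 and 37.5 CPM in KO at 16 weeks, without overlap, and still missed the adjusted threshold (adjusted p = 0.145). Hadha had 178, 151 and 149 and 162, 198 and 169 CPM in lean WT and KO and 187, 173 and 183 and 195, 179 and 177 CPM at 16 weeks (log2 fold change 0.12 ± 0.08, adjusted p = 0.462). Etfa, Etfb and Etfdh also gave 0 calls, at -0.05, -0.31 and 0.14.

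Cd36 and Fabp4, which fat and capillary endothelial cells also express at high level, had the widest spread. Cd36 (chr5:17781690-17888801, minus strand) had 1.41, 0 and 2.85 CPM in lean WT and 1.83, 2.13 and 7.35 CPM in lean KO. At 4 weeks it had 0, 0.783 and 9.54 CPM in WT and 3.31, 10.1 and 0.361 CPM in KO. At 16 weeks it had 7.30, 13.8 and 1.71 CPM in WT and 117, 13.7 and 13.4 CPM in KO, and after transfer 3.53 and 2.17 CPM and 1.72 and 0 CPM. KO replicate 1 at 16 weeks stood far above the next highest library, WT replicate 2 on the same diet. The average rise from lean to 16 weeks had log2 fold change 3.05 ± 0.83 (SE), adjusted p = 0.0303. It was 2.13 with an adjusted p of 0.16 without that library, the highest of all 12 such fits. Leaving out any one of lean WT replicates 1 and 2, lean KO replicates 1 and 2, 16-week WT replicates 1 and 2 and 16-week KO replicate 1 ended the call, as did the replicate block (adjusted p = 0.0605).

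Fabp4 (chr3:10204088-10208576, minus strand) followed the same library. It had 1.88, 1.67 and 3.32 CPM in lean WT, 3.30, 1.60 and 3.22 CPM in lean KO, 1.51, 0 and 2.01 CPM in WT at 4 weeks and 1.10, 4.22 and 3.61 CPM in KO at 4 weeks. At 16 weeks it had 4.77, 4.08 and 1.37 CPM in WT and 53.3, 9.12 and 9.78 CPM in KO, and every KO library exceeded every WT library. The lowest Cd36, Fabp4 and Acsl3 of the WT group were all in replicate 3, the library high in cytotoxic T and NK markers. From lean to 16 weeks it rose 3.59-fold on average (log2 fold change 1.84 ± 0.55 (SE), adjusted p = 0.0478). Without KO replicate 1 the log2 fold change was 1.17 (adjusted p = 0.229), and the call was lost when any one of lean WT replicates 1, 2 and 3, lean KO replicates 1, 2 and 3, 16-week WT replicates 1 and 2 and 16-week KO replicate 1 was left out, and with the replicate block (adjusted p = 0.0729).

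Endothelial markers were raised along with both genes in the KO libraries at 16 weeks. In KO replicate 1 at 16 weeks all 11 endothelial markers were detected, among them Cldn5 at 38.1 CPM, Esam at 21.6 CPM and Gpihbp1 at 21.2 CPM. Their sum without Pecam1, which every library carried at 36.0 CPM or more, was 17.3 to 122 CPM in KO at 16 weeks, 4.12 to 7.30 CPM in WT at 16 weeks, 2.93 to 8.55 CPM on lean diet, 3.02 to 7.03 CPM at 4 weeks and 4.41 to 8.40 CPM after transfer. The 6 stromal markers were also all detected in KO replicate 1, at 119 CPM in sum, led by Dcn at 48.2 CPM. In KO replicates 2 and 3 on that diet the stromal sum was 3.42 and 3.91 CPM. Of the 10 adipocyte markers 3 were detected in KO replicate 1, Lpl holding 16.2 of 17.3 CPM with Adipoq, Plin1 and Cidec at 0. The part of these cells in the Cd36 and Fabp4 values was not tested. Cd36 was 13.8 CPM in 16-week WT replicate 2, where the endothelial sum was 5.65 CPM. It was 10.1 CPM in 4-week KO replicate 2 and 9.54 CPM in 4-week WT replicate 3, at sums of 5.84 and 7.03 CPM. In the 2 transferred KO libraries Fabp4 was 8.40 and 11.2 CPM where the endothelial sum was 8.40 and 5.49 CPM and the stromal sum 10.3 and 1.32 CPM.

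**Figure D3:**
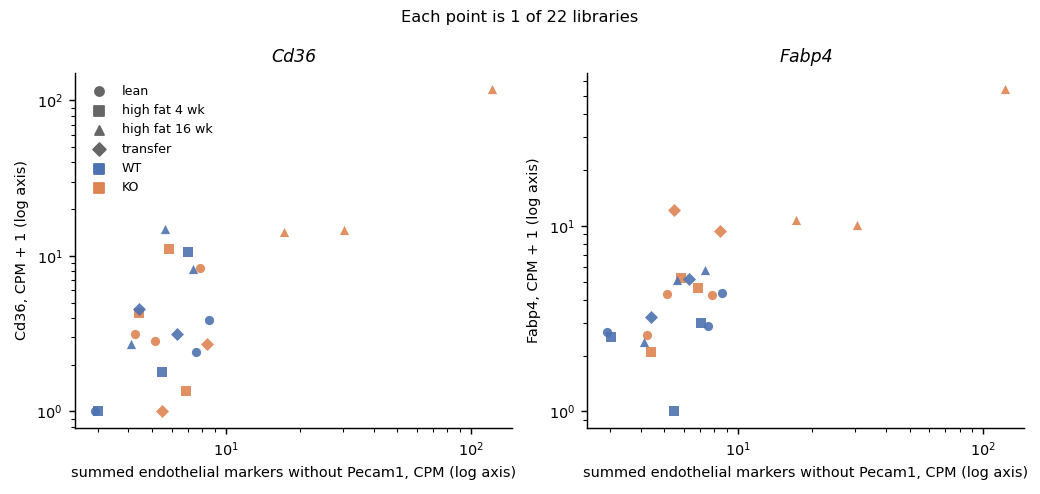
Cd36 and Fabp4 (CPM + 1, log axis) against the summed CPM of 10 endothelial markers without Pecam1 (log axis), with 1 point a library. Shape gives diet or transfer and colour the genotype. KO replicate 1 at 16 weeks lies alone at upper right, at 122 CPM of endothelial markers, 117 CPM of Cd36 and 53.3 CPM of Fabp4.

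Fabp5, the binding protein with the higher level in Tregs, had a negative fold that did not pass the test. It had 17.4, 17.6 and 20.4 CPM in lean WT and 19.1, 25.0 and 26.6 CPM in lean KO. At 4 weeks it had 14.3, 16.4 and 20.1 CPM in WT and 18.7, 18.5 and 16.6 CPM in KO, and at 16 weeks 8.99, 17.9 and 17.8 CPM and 19.4, 11.8 and 13.4 CPM. The log2 fold change from lean to 16 weeks was -0.49 ± 0.20 (adjusted p = 0.158). Slc27a1 and Slc27a4 had 0.00 and -0.30 and did not pass.

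After 4 weeks of high fat diet no member passed. Of the 40 tested members 0 were called, beside 0% of the 11698 genes, while 7 members and 940 genes had an unadjusted p under 0.05. Cpt1a came closest, with 203, 213 and 177 CPM in WT and 168, 208 and 162 CPM in KO at 4 weeks, all 6 above the highest lean library (156 CPM), and had log2 fold change 0.48 ± 0.11 (SE), adjusted p = 0.151. DESeq2 did call it in this comparison, as it called 47 genes in all. Hadha (189, 217 and 199.8 CPM in WT and 225, 183 and 192 CPM in KO), Lipa, Dgat1 and Slc25a20 had log2 fold changes of 0.26, 0.48, 0.33 and 0.38 and Plin3 and Ucp2 of -0.41 and -0.14, with adjusted p of 0.352 to 0.59. The 4 carnitine shuttle genes all had positive folds at 4 weeks, from 0.08 to 0.48.

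The longer diet was also set against the shorter one. At 16 against 4 weeks 2 of 40 members were called (5.00%), beside 2.12% of all genes (248 genes, 0.59% higher and 1.53% lower), and the 12 weeks of age again go with the diet. Acot7 (chr4:152178134-152271855, plus strand) had 299, 366 and 327 CPM in WT and 389, 319.8 and 354 CPM in KO at 4 weeks, and 230.00, 256 and 314 CPM in WT and 249, 242 and 261 CPM in KO at 16 weeks. It fell 1.32-fold (log2 fold change -0.40 ± 0.09 (SE), adjusted p = 0.02), with no overlap in KO and some in WT. Fabp4 rose (log2 fold change 2.28 ± 0.57 (SE), adjusted p = 0.0386). The call of Acot7 was lost when any one of 4-week WT replicate 2, 4-week KO replicates 1 and 3, 16-week WT replicate 1 and 16-week KO replicate 1 was left out (adjusted p up to 0.0672). That of Fabp4 was lost without any one of 4-week WT replicates 1 and 2, 4-week KO replicates 1 and 3, 16-week WT replicate 1 and 16-week KO replicate 1 (adjusted p up to 0.171). Dgat1 was -0.28 ± 0.12 and Plin2 -0.60 ± 0.27 on the log2 scale without passing (adjusted p = 0.259 and 0.318).

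The diets were also compared within each genotype. Within KO at 16 weeks, 6 of 40 members passed against lean diet (15.0%, beside 5.95% of all genes, 696 genes, 2.36% higher and 3.59% lower). Fabp4, Cd36 and Cpt1a rose, by 3.10 ± 0.74, 3.66 ± 1.07 and 0.57 ± 0.16 on the log2 scale. Ucp2, Acot7 and Acsl3 had -0.36 ± 0.09, -0.50 ± 0.13 and -3.86 ± 1.00, with adjusted p of 0.0157 to 0.046 for the 6. Between 0 and 3 members were called when a single KO library was left out. Without KO replicate 1 at 16 weeks the one call was Ucp2, and the log2 fold changes of Cd36 and Fabp4 were 1.83 and 1.76 (adjusted p = 0.452 and 0.222). Cpt1a lost its call in each of the 6 fits without a single library (adjusted p = 0.0738 to 0.13). Cd36 also lost it with DESeq2 (0.106) and with the replicate block (0.0939). Within WT 0 of 40 members passed (beside 0.0855% of all genes, 10 genes), 5 had an unadjusted p under 0.05 (beside 8.76% of all genes) and DESeq2 called 0. Cpt1a had 0.47 ± 0.16 in WT (adjusted p = 0.321), Ucp2 -0.19 ± 0.09 (0.581) and Dgat2 1.73 ± 0.68 (0.436). At 4 weeks against lean diet 0 of 40 members passed within either genotype, beside 0% of all genes, with 6 members in WT and 2 in KO at an unadjusted p under 0.05 (beside 5.59% and 7.15% of all genes) and 0 and 0 called by DESeq2.

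The difference between genotypes in the response to diet was itself not past the threshold for any member. Both interaction tests called 0 of 40 members, beside 0% of all genes, with 0 members at an unadjusted p under 0.05 for 4 weeks and 5 members (993 genes) for 16 weeks. DESeq2 called 0 and 0 members. Those 5 were Slc27a4 (-1.41 ± 0.47, adjusted p = 0.4), Plin2 (-1.55 ± 0.55, adjusted p = 0.432), Acsl3 (-3.21 ± 1.28), Acot7 (-0.43 ± 0.18) and Fabp4 (2.51 ± 1.12).

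**Figure D4:**
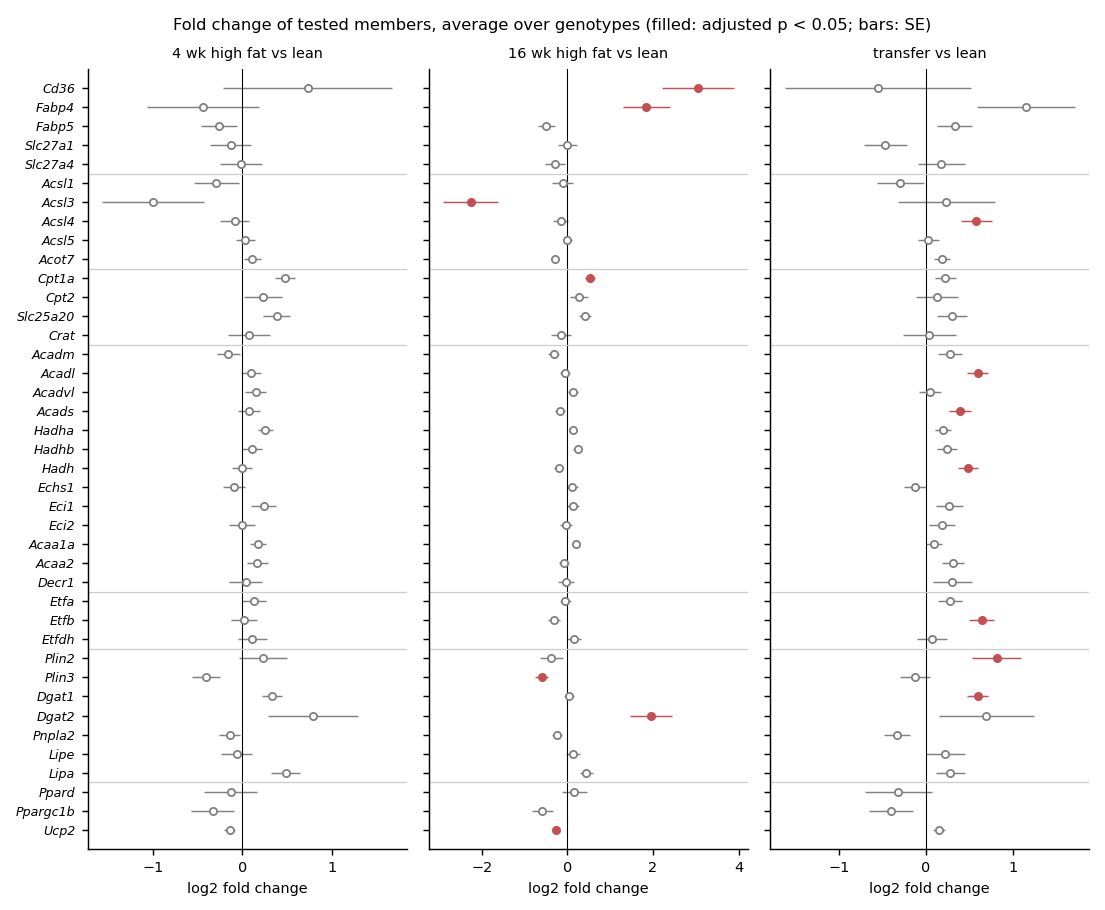
Log2 fold change with its SE for the 40 tested members, averaged over the genotypes, at 4 weeks against lean, 16 weeks against lean and transfer against lean. Filled red points pass an adjusted p under 0.05, and the numbers of them are 0, 7 and 7. Genes are ordered by role, with grey lines between roles, and the 3 comparisons share the lean libraries.

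Plin2 (chr4:86648386-86670060, minus strand) varied several-fold within groups. It had 364, 198 and 293 CPM in lean WT and 471, 559 and 369 CPM in lean KO, where every KO library exceeded every WT library. At 4 weeks it had 257, 626 and 176 CPM in WT and 596, 596 and 361 CPM in KO. At 16 weeks it had 176, 585 and 366 CPM in WT and only 194, 245 and 196 CPM in KO. KO against WT gave log2 fold changes of 0.72 ± 0.39 on lean diet, 0.56 ± 0.38 at 4 weeks and -0.83 ± 0.39 at 16 weeks, none past the threshold (adjusted p = 0.741, 0.999 and 0.536). At 4 weeks the value was 1.26 without WT replicate 2, 0.24 without WT replicate 3 and 0.37 without WT replicate 1. At 16 weeks it was -0.35 without WT replicate 2, the library with 585 CPM.

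Within WT on each diet and within KO at 16 weeks, the adipose Treg markers varied between libraries in the same order as Plin2. Within KO on lean diet and at 4 weeks the orders differed. The 6 markers were all detected in every library. In 16-week WT they summed to 5706 CPM where Plin2 was 585 CPM, and to 2597 and 3174 CPM at 176 and 366 CPM. Their sum was 2211 to 2912 CPM in KO at 16 weeks, 3258 to 6288 CPM in lean WT, 5827 to 6207 CPM in lean KO, 3760.2 to 5029 CPM in WT and 5564 to 6146 CPM in KO at 4 weeks. The part of this population in the Plin2 values was not tested.

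Loss of Bmal1 was followed by no call among these genes in any of 5 comparisons. Of the 40 tested members 0 passed for KO against WT on lean diet (0.0427% of all genes passed, 5 genes), at 4 weeks of high fat diet (0.0684%, 8 genes), at 16 weeks (0.0427%, 5 genes), on average over the 3 diets (0.18%, 21 genes) and after transfer (0.171% of 11715 genes, 20 genes). At an unadjusted p under 0.05 there were 2, 0, 6, 5 and 5 members, beside 7.17%, 4.62%, 9.15%, 7.39% and 6.53% of all genes. DESeq2 called 0, 0, 1, 1 and 0 members, Fabp4 at 16 weeks and Ucp2 on average. With no filter on low counts edgeR called 1, 1, 4, 2 and 0 members, Plin2 on lean diet and at 4 weeks, Cd36, Fabp4, Acsl3 and Plin2 at 16 weeks, and Cd36 and Fabp4 on average. The median log2 fold change of the 40 members was 0.16 in the lean comparison, 0.08 for the 4-week groups, 0.01 for the 16-week groups and 0.08 after transfer, beside 0.00 to 0.01 over all genes.

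Ucp2 had the smallest p on lean diet and on average. Its lean KO libraries (1953 to 2124 CPM) all exceeded the lean WT libraries (1452 to 1804 CPM), with log2 fold change 0.33 ± 0.09 (SE), adjusted p = 0.41. At 4 weeks it had 1488, 1749 and 1512 CPM in WT and 1775, 1788 and 1657 CPM in KO (0.14 ± 0.09), and at 16 weeks KO again exceeded WT without overlap (0.16 ± 0.09). After transfer it had 1914 and 1957 CPM in WT and 2122 and 2132 CPM in KO (0.12 ± 0.08), also without overlap. The average over the diets was log2 fold change 0.21 ± 0.05 (SE), adjusted p = 0.24. The members on chromosome 7 with Arntl were Ucp2, Dgat2, Echs1, Pnpla2, Etfb and Lipe. They lie 12.71, 14.02, 26.91, 28.25, 69.76 and 87.81 Mb from its start.

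At 4 and 16 weeks the smallest p belonged to genes of other steps. Acadvl, the very long chain dehydrogenase, led at 4 weeks with 114, 107 and 106 CPM in WT and 112, 82.7 and 71.1 CPM in KO (log2 fold change -0.29 ± 0.17 (SE), adjusted p = 0.999). On lean diet it had 95.2, 73.6 and 90.7 and 82.9, 97.9 and 91.0 CPM and at 16 weeks 80.3, 94.4 and 119.7 and 95.7, 101 and 89.0 CPM in WT and KO, so its groups overlapped. Fabp4 led at 16 weeks (log2 fold change 2.79 ± 0.70 (SE), adjusted p = 0.201), with the marker values of KO replicate 1 given above, and had 1.44 (adjusted p = 0.713) without that library. There Slc27a4 was -1.04 ± 0.34, from 16.3, 19.1 and 22.3 CPM in WT and 10.4, 7.98 and 9.46 CPM in KO without overlap (adjusted p = 0.311). Cd36 was 2.64 ± 0.96 (adjusted p = 0.373), and 0.82 without KO replicate 1. The carnitine acetyltransferase Crat had the most negative average over the diets of the shuttle genes (-0.53 ± 0.19, adjusted p = 0.484). All 13 beta-oxidation genes had averages between -0.09 and 0.07.

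After transfer Slc27a1, the insulin-responsive fatty acid transporter, had the smallest p of the KO comparison. It had 9.71 and 7.95 CPM in WT and 21.3 and 20.3 CPM in KO (log2 fold change 1.22 ± 0.39 (SE), adjusted p = 0.633). In the diet libraries it had 15.5, 26.3 and 18.5 and 13.2, 19.1 and 20.2 CPM on lean diet, 17.4, 12.5 and 18.1 and 11.8, 24.0 and 19.9 CPM at 4 weeks and 17.7, 11.0 and 24.4 and 18.7, 17.5 and 23.8 CPM at 16 weeks in WT and KO, with overlap each time. Fabp4 was 2.21 and 4.15 CPM in transferred WT and 8.40 and 11.2 CPM in transferred KO cells (1.59 ± 0.64, adjusted p = 0.72). Plin2 was 586 and 592 CPM and 683 and 711 CPM (0.23 ± 0.10, adjusted p = 0.737). Cd36 went the other way from its 16-week fold (-1.73 ± 1.36, adjusted p = 0.92), on 8 counts in KO.

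**Figure D5:**
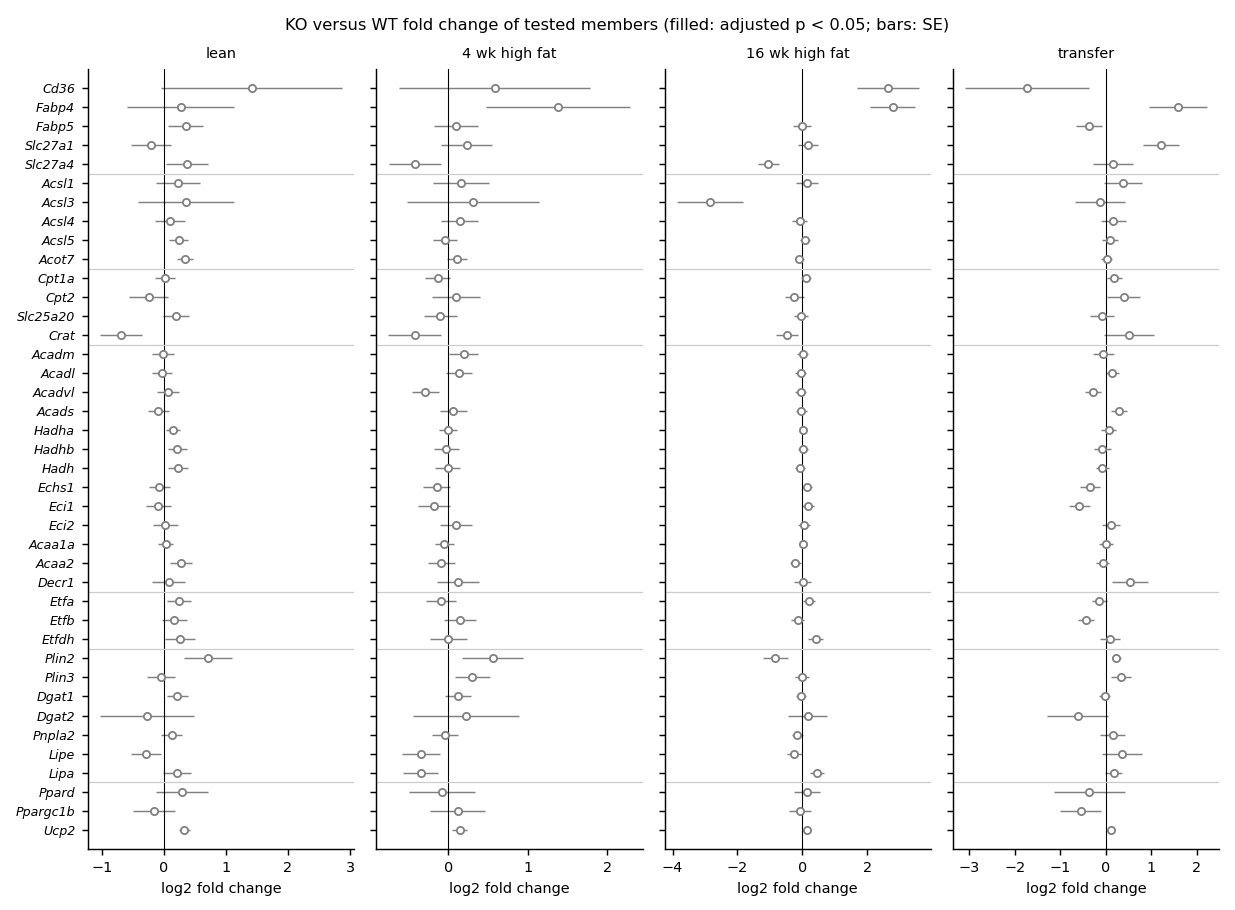
Log2 fold change of KO against WT with its SE for the 40 tested members in the lean, 4-week, 16-week and transfer groups. No point is filled, since 0 members passed an adjusted p under 0.05. Most beta-oxidation genes lie near 0, and Plin2 lies right of 0 on lean diet and at 4 weeks and left of it at 16 weeks.

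In transferred Tregs 3 beta-oxidation genes, an electron transfer subunit, a synthetase and 2 storage genes were higher than on lean diet. Against lean diet, averaged over the genotypes, 7 of 40 members were called and all 7 rose. Counted in either direction, that is 17.5% of the members, beside 16.2% of the 12523 genes tested (2023 genes), a share near the background. For rises alone it is 17.5% beside 7.35% of the genes tested (920 genes). Rises are given alone because no called member fell, so the direction follows from the calls, and this difference was not tested. The median log2 fold change of the 40 was 0.22, beside -0.02 over all genes. Transfer goes together with the host, 2 weeks of age and a higher depth, which cannot be told apart.

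Acadl (chr1:66830839-66863277, minus strand) had 120.2, 97.8 and 116 CPM in lean WT and 98.6, 121 and 107 CPM in lean KO, against 162 and 154 CPM in transferred WT and 185 and 165 CPM in transferred KO cells. All 4 transfer libraries lay above the lean ones, 1.51-fold on average (log2 fold change 0.60 ± 0.12 (SE), adjusted p = 0.0014). Etfb, the smaller flavoprotein subunit, went from 44.3, 48.1 and 37.5 and 46.2, 53.7 and 46.4 CPM to 83.0 and 83.1 and 60.1 and 64.0 CPM in WT and KO (log2 fold change 0.64 ± 0.15 (SE), adjusted p = 0.00384). The annotated genes Gm45233 and Mir7051 share exon sequence with Etfb on the same strand. Hadh went from 115, 89.4 and 104 and 109.99, 124 and 126 CPM to 162 and 156 and 140.02 and 163 CPM (log2 fold change 0.48 ± 0.12 (SE), adjusted p = 0.00571). Dgat1 (chr15:76502015-76511953, minus strand) rose to 488 and 503 and 444 and 539.6 CPM from the lean values above (log2 fold change 0.60 ± 0.12 (SE), adjusted p = 0.00181). These 4 genes kept the call without each of the 10 lean and transfer libraries in turn, with adjusted p of 0.0384 or less.

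Acsl4, the synthetase that prefers arachidonic acid, had 25.9, 29.7 and 30.4 and 27.9, 34.0 and 30.3 CPM on lean diet and 45.2 and 38.1 and 36.6 and 57.7 CPM after transfer in WT and KO (log2 fold change 0.58 ± 0.18 (SE), adjusted p = 0.0296). Acads had 67.9, 53.5 and 58.9 and 53.2, 63.8 and 52.4 CPM against 66.4 and 71.0 and 82.9 and 86.3 CPM, with 1 transfer library inside the lean range (log2 fold change 0.39 ± 0.12 (SE), adjusted p = 0.0344). Plin2 rose 1.76-fold (log2 fold change 0.81 ± 0.28 (SE), adjusted p = 0.0489), all 4 transfer libraries lying above the lean ones. The call of Acsl4 was lost when any one of lean WT replicate 1, lean KO replicates 1 and 3, transfer WT replicate 1 and transfer KO replicate 2 was left out (adjusted p up to 0.202). Those of Acads and Plin2 were lost in 8 and 9 of the 10 fits without a single library (adjusted p up to 0.102 and 0.114), all but those without lean WT replicate 1 or lean KO replicate 2 for Acads and without lean WT replicate 1 for Plin2. The 6 adipose Treg markers summed to 9474 to 10491 CPM after transfer, beside 3258 to 6288 CPM in the lean libraries. The 6 cytotoxic T and NK markers summed to 44.2 to 110.1 CPM after transfer and 157 to 390.4 CPM in the lean libraries. Nkg7 alone made the largest part of that sum, with 27.4 to 73.7 CPM after transfer and 139 to 356 CPM on lean diet. Cd8a was at 0 in every lean library and had 0.379 CPM or less after transfer. Which cells carried either sum, and their part in these values, was not tested. Cpt1a (166 and 128 CPM in WT and 158 and 178 CPM in KO), Fabp5 (32.2 and 26.9 and 24.1 and 22.3 CPM), Hadha (200.1 and 174 and 174 and 219 CPM) and Acot7 (349.7 and 357 and 351 and 371 CPM) did not pass against lean diet, with adjusted p of 0.238, 0.279, 0.171 and 0.204.

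Other genes of fatty acid handling, a list of 131 that holds no member, gave few calls as well. Of them 93 were tested in the diet libraries. At 16 weeks against lean diet 2 rose and 5 fell (7.53%, beside the 6.63% of all genes). Pparg, the receptor that fat Tregs depend on, fell from 69.2 ± 27.9 to 18.1 ± 8.82 CPM (SD, n = 6 each), with log2 fold change -1.95 ± 0.31 (SE), adjusted p = 0.000686. It is also 1 of the 6 adipose Treg markers. Their mean sums were 4583 and 6047 CPM in lean WT and KO, and 3825 and 2638 CPM at 16 weeks. The part of this population in the Pparg values was not tested, and age again goes with the diet. The corepressor Ncor1 (-0.39 ± 0.07), the lipase cofactor Abhd5 (-0.69 ± 0.18) and the acyltransferase Agpat4 (-0.51 ± 0.15) fell too. The mitochondrial thioesterase Acot2 (0.54 ± 0.14) and the peroxisomal hydroxylase Phyh (0.41 ± 0.11) rose, with adjusted p of 0.00143 to 0.036 for these 5. Agpat4 is outside the 6 of smallest p and was named after its values were seen.

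At 16 against 4 weeks 0 of the 93 rose and 4 fell (4.30%, beside the 2.12% of all genes), among them Pparg (-1.47), Ncor1 (-0.36) and Agpat4 (-0.57 on the log2 scale). In KO against WT 0 were called on any diet, on average or after transfer, with 5, 5, 8, 7 and 2 at an unadjusted p under 0.05, beside 7.17%, 4.62%, 9.15%, 7.39% and 6.53% of all genes. After transfer against lean diet 11 of 97 tested rose and 1 fell, 12.4% beside the 16.2% of all genes. Among those of smallest p, these rose: Ncor1 (0.55), Hilpda, a droplet protein that restrains lipolysis (1.21), Phyh (0.50), Agpat5 (0.66) and Acot9 (0.47 on the log2 scale). The one that fell was Soat2, named to complete the count, at 0 to 4.35 CPM after transfer (median 0.215) and 0 to 6.27 CPM on lean diet (median 4.77), so that the ranges overlapped.

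Exon sequence is shared with another annotated gene in 15 members, on the opposite strand in 13 of them. Beside those named above these include Acsl5 with Zdhhc6, Acadvl with Dvl2, Crat with Dolpp1, Echs1 with Paox, Hadha with Garem2 and Acaa1a with Myd88. The sources used here do not say how reads from the shared bases were counted.

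The members not given by library above had the following ranges over the 22 libraries. Acsl5 ran from 133 to 205 CPM (median 172), Acaa1a from 96.1 to 133 CPM (median 109.9) and Acaa2 from 84.7 to 140.1 CPM (median 103). Hadhb ran from 56.4 to 88.1 CPM (median 75.9), Etfa from 44.6 to 85.4 CPM (median 66.8) and Etfdh from 40.8 to 76.1 CPM (median 56.2). Eci1 ran from 37.7 to 80.0 CPM (median 58.0), Eci2 from 42.3 to 75.5 CPM (median 58.4), Echs1 from 41.1 to 65.1 CPM (median 51.7) and Decr1 from 13.9 to 35.3 CPM (median 23.5). Slc25a20 ran from 39.3 to 85.0 CPM (median 59.8), Cpt2 from 14.5 to 41.8 CPM (median 30.1) and Crat from 9.05 to 31.4 CPM (median 15.6). Pnpla2 ran from 54.1 to 104 CPM (median 78.1), Lipa from 56.8 to 139 CPM (median 90.6), Lipe from 14.3 to 36.4 CPM (median 20.6) and Acsl1 from 8.68 to 27.0 CPM (median 16.9). None of these 17 passed the threshold in any comparison.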

How the data were processed

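STAR 2.7.3a, featureCounts and the mm10 build are named in the submitters' processing notes; settings were not given in the sources used here. Libraries were made by oligo(dT) priming and tagmentation without strand marking, per the labels' protocols. The deposited values are whole-number counts per gene symbol, with no scaling by the authors seen. From them, levels were computed as CPM after TMM scaling over all 22 libraries, and per kb of exon union in GENCODE M21. Tests were quasi-likelihood F tests of edgeR (version 4.0.16, R 4.3.3; filterByExpr, minimum count 10), Benjamini-Hochberg adjusted over all genes tested, with 0.05 as the threshold. The 18 diet libraries were fitted together, the 4 transfer libraries alone, and all 22 for transfer against lean diet. Alternatives were RLE scaling, no filter, DESeq2 1.42.0, a replicate block, 1 fit of all libraries (for transfer against lean diet, the 10 libraries compared) and leaving out each library. Scripts were tested on simulated data. No libraries were near-duplicates by a chi-square of counts. Members and lists were chosen with earlier results of these data known. Values by library are given for members past the threshold in any comparison and the 5 of highest mean CPM. They are also given for 11 fixed genes and the smallest p in each KO comparison. Of the fixed genes, Ppara, Ppargc1a and Pdk4 are given by their zeros and highest value only. Values by library of Acadm and Slc27a4 are given for some groups outside these rules. Other genes are given by smallest p, up to 6 a comparison. Some genes of the other lists are counted but not reported here by name.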

Additional observations from a re-analysis of the deposited data

How the results depend on the processing

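All alternatives were chosen along with the tests, and every count below is of members past the threshold. With no filter on low counts KO against WT gave 1 on lean diet, 1 after 4 weeks, 4 after 16 weeks and 2 on average. The same setting gave 2 for 4 weeks against lean diet, 6 for 16 against 4 weeks, 1 for 4 weeks and 2 for 16 weeks against lean diet in WT and 1 for the interaction at 16 weeks. DESeq2 gave 1 for KO against WT at 16 weeks (Fabp4), 1 on average (Ucp2) and 1 for 4 weeks against lean diet (Cpt1a). Leaving out 1 library gave 2 to 6 for 16 weeks against lean diet, 0 to 3 for 16 against 4 weeks, 0 to 3 for 16 weeks against lean diet in KO and 4 to 6 for transfer against lean diet. The replicate block gave 5 for 16 weeks against lean diet (without Cd36 and Fabp4), 5 for the same in KO (without Cd36), 1 for 16 against 4 weeks (Acot7) and 4 for transfer against lean diet (Acadl, Hadh, Etfb and Dgat1). Replicate numbers did not pair the libraries: same-numbered deviations correlated at -0.24 to 0.366 in the diet libraries, where 6 of 18 correlated best with their own number, and at -0.008 after transfer. The other 175 member counts stayed within 1.5 times the reported ones. The cause of these shifts was not tested.

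Counts over all genes moved by more than 1.5 times with no filter for KO against WT on lean diet (135 genes), after 4 weeks (75), after 16 weeks (428), on average (273) and after transfer (102), and for 4 weeks against lean diet (161) and 16 against 4 weeks (536). DESeq2 called 921 genes at 16 weeks against lean diet and 386 at 16 against 4 weeks. Leaving out 1 library gave 483 to 967 and 114 to 425 genes in these. In transfer against lean diet DESeq2 moved the median log2 fold change of all genes to -0.19, and Plin2 missed the threshold there (adjusted p = 0.101) and with RLE scaling (0.0524). Cd36 for KO against WT at 4 weeks changed sign, from 0.58 to -0.05 without WT replicate 1 and -0.75 without KO replicate 2, within a leave-one-out range of -0.75 to 3.455. Depth limits the sparse genes most: a library at 0 allows up to 1.60 CPM.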
